A study of Mus musculus with 6 samples.

Results

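The genes described here are a set of 10, of 19057 named on the array, that surround peroxisome proliferator-activated receptors (PPARs) and the uptake and storage of lipid. They are the receptor genes Pparg, Ppara and Ppard, the receptor partner Rxra, the transcription factor genes Cebpa and Cebpb, and the lipid-handling genes Lpl, Fabp4, Plin2 and Cd36. Every array probe that the platform annotation assigns to one of these genes was taken, which gave 14 of the 45281 probes on the Illumina mouse WG-6 v2.0 BeadChip. Each probe was read in whole lungs of embryos at E18.5, 3 per group. R26Foxf1; Tie2-cre lungs (Tie2-cre lungs from here on) carried 1 ROSA26 allele holding a knocked-in Foxf1 whose lox-STOP-lox (LSL) block is removed by Cre from the Tie2 (Tek) promoter, which is active in endothelial and hematopoietic cells. R26-LSL-Foxf1 control lungs carried that knocked-in allele too, with its stop block in place, and their label names no Cre. Endogenous Foxf1 was intact in both groups. The comparison asks whether the lipid genes follow Pparg when Foxf1 is overexpressed. In RNA from whole lung, fewer cells of a type and less RNA per cell cannot be told apart.

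PPARs are nuclear receptors that are activated by fatty acids and their derivatives. They bind DNA together with a retinoid X receptor (RXR), most often at a direct repeat of the hexamer AGGTCA, and switch on genes for the uptake, storage and burning of fatty acids. PPARG drives fat cell differentiation together with CEBPA and CEBPB, and in the lung it is known for its part in alveolar macrophages, which clear surfactant lipid, in lipid-laden fibroblasts and in the epithelium. LPL releases fatty acids from circulating triglyceride, CD36 takes them up at the cell surface, FABP4 carries them inside the cell and PLIN2 coats the droplets in which they are stored. All 4 of these lipid-handling genes are known PPAR targets in other tissues.

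All annotated promoter windows of Pparg and Rxra are shown because these were the only members of the set whose signal passed the test described below, in opposite directions. The sequences are from RefSeq (GRCm38.p6), run 5′ to 3′ on the gene's strand and cover 250 bases before and 50 after an annotated start. Capitals mark AGGTCA on either strand, the C/EBP motif TTGCNNAA and the forkhead motif TGTTTNC.
Pparg window 1, chr6:115360894-115361193, + strand: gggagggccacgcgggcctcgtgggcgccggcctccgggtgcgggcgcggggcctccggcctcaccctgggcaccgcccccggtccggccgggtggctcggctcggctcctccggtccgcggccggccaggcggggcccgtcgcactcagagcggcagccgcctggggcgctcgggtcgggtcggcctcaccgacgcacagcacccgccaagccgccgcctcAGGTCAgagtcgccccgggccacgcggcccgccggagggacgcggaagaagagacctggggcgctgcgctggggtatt
Pparg window 2, chr6:115362099-115362398, + strand: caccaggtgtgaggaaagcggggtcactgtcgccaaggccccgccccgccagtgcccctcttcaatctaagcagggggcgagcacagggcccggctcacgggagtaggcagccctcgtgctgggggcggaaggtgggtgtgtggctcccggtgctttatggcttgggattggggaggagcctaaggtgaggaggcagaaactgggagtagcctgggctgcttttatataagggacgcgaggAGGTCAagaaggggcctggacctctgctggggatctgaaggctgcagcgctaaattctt
Pparg window 3, chr6:115421816-115422115, + strand: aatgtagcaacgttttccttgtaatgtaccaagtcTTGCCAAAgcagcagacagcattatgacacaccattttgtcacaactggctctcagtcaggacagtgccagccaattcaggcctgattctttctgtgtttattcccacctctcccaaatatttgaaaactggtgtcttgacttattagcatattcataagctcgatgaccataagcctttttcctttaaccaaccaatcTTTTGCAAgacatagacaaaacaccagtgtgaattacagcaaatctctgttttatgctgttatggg
Rxra window 1, chr2:27676951-27677250, + strand: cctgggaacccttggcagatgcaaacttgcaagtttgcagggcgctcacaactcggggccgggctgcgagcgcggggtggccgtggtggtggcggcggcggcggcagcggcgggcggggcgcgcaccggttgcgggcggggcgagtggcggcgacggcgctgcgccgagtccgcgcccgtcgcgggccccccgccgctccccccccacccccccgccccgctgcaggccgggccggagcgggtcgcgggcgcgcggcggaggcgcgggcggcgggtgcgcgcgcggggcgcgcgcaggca
Rxra window 2, chr2:27709042-27709341, + strand: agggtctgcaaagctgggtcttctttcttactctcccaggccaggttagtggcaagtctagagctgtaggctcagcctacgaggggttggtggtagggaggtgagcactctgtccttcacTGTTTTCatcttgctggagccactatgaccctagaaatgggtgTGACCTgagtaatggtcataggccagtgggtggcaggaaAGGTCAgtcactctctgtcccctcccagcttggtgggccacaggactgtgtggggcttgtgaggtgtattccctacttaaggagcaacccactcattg

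Windows were at hand for 8 of the 10 genes, 11 windows in all. AGGTCA was present on either strand in 5 of these 11, against 16.3% of 32851 windows over all annotated mouse genes. Positions count from the start, with bases before it negative, and give the first base of a match. In Pparg, AGGTCA lay at −28 in window 1 and at −9 in window 2. Rxra window 2 held it at −48 and, on the opposite strand, at −87, and Rxra window 1 held none of the motifs. The remaining matches, both on the opposite strand, were at −218 in the Plin2 window and at −228 in the Cd36 window. The C/EBP motif was found in Pparg window 3 alone among the member windows, at −215 and, on the opposite strand, at −16, and it was in 10.8% of all windows. The forkhead motif was in Rxra window 2 and in the Cd36 window, and in 20.5% of all windows. A direct repeat of AGGTCA with 1 base between its 2 copies was in 0 of 11 member windows and 0.0396% of all windows. The looser AGGNCA repeat with the same spacing was in 0 of 11 and 0.381%. These matches are letters in a window and not measured binding. The annotation does not say which of these starts a probe reads.

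Of the 14 probes, 7 gave a signal above background on all 6 arrays (detection p under 0.01), 1 probe each for Pparg, Ppard, Rxra, Cebpa, Cebpb, Lpl and Plin2. Levels are given as background-corrected, quantile-normalised log2 signals and compare lungs for one probe, not one gene with another. Differences are log2 values in Tie2-cre lungs minus those in control lungs, tested with limma over the 20118 detected probes with Benjamini-Hochberg adjustment. The threshold was an adjusted p under 0.05 with a fold change of at least 1.2. By this rule 2 of the 7 probes passed, 1 higher and 1 lower in Tie2-cre lungs, where 4.51% of all tested probes passed (2.43% higher and 2.09% lower). Higher calls made up 53.7% of all calls, and 39.3% with cyclic loess in place of quantile normalisation. At an unadjusted p under 0.05 the count was 4 of 7, against 26.2% of all tested probes. The groups did not overlap at 4 of 7 probes, 3 lower and 1 higher in Tie2-cre lungs, against 31.9% of all tested probes (13.4% lower and 18.5% higher). The mean was lower in Tie2-cre lungs at 6 of 7 probes, against 45.1% of all tested probes. The median difference of the 7 probes was −0.23, against 0.03 for all tested probes.

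**Figure D1:**
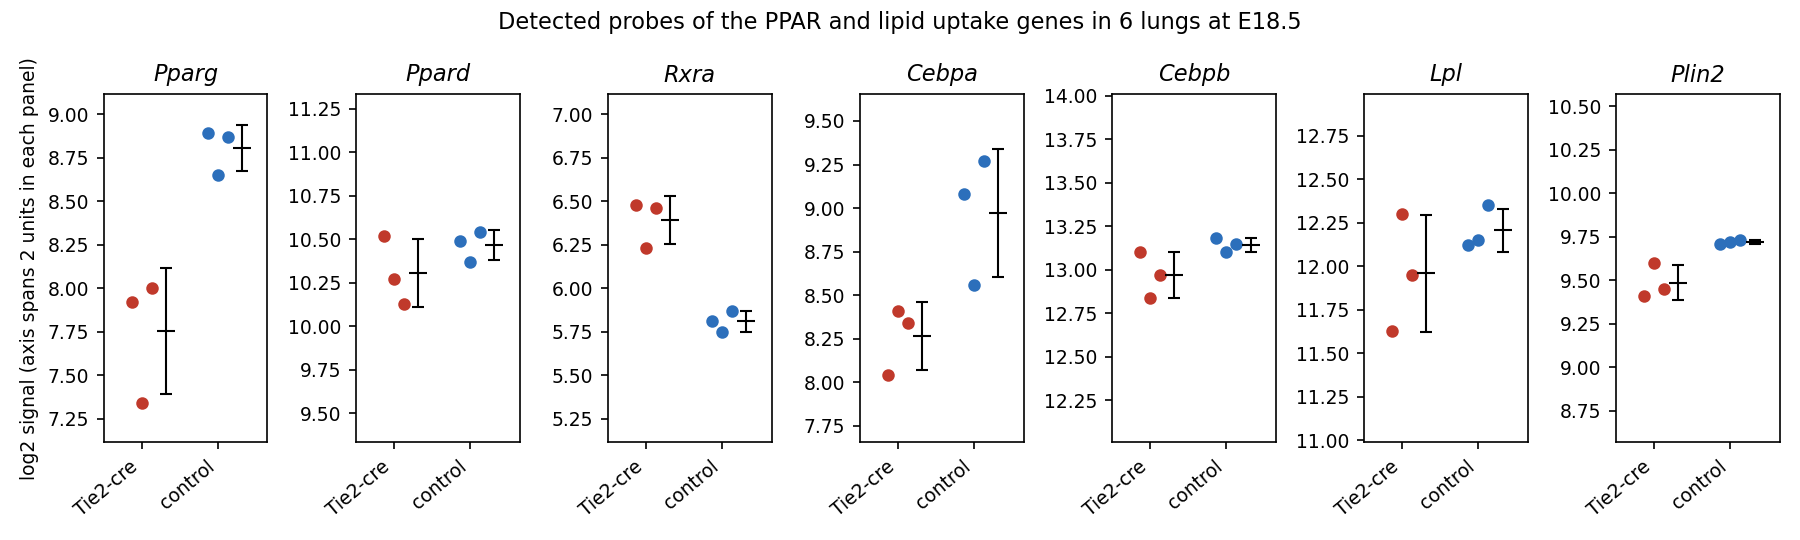
Log2 signal (y axis) of the 7 detected probes in each lung, 1 panel per gene, with Tie2-cre lungs left of control lungs. Points are lungs and bars are the group mean ± SD (n = 3 each). Pparg sits between 7.34 and 8.0 in Tie2-cre lungs and between 8.65 and 8.89 in control lungs, and Rxra runs the other way.

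Among the receptors, Pparg fell and its partner Rxra rose. Pparg had log2 signals of 7.92, 7.34 and 8.0 in Tie2-cre lungs, against 8.89, 8.65 and 8.87 in control lungs. All 3 Tie2-cre lungs were below all 3 control lungs, and replicate 2 was the lowest within each group. The means were 7.76 ± 0.36 in Tie2-cre lungs and 8.80 ± 0.13 in control lungs (SD, n = 3 each), a 2.07-fold lower level. The log2 difference was −1.05 (SE 0.18, 95% interval −1.47 to −0.62, limma adjusted p = 0.0386). An exact two-sided permutation test over the 6 lungs gave p = 0.1, the smallest it can give with 3 against 3. Leaving out any 1 lung kept Pparg lower, by −1.17 to −0.84, with adjusted p between 0.0306 and 0.129. It stayed past the threshold only when Tie2-cre replicate 2 or control replicate 2 was left out. In the values normalised by the authors, the difference was −0.64, which passed in limma and did not pass in the methods' t-test (adjusted p = 0.135). The call was also lost without the filter on dim probes (limma adjusted p = 0.0748), with a looser filter (0.0514) and with the replicate number as a block (0.0665).

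Rxra encodes 1 of the RXR subtypes, which can pair with each of the 3 PPARs. Its log2 signals were 6.48, 6.23 and 6.46 in Tie2-cre lungs, against 5.81, 5.75 and 5.87 in control lungs. The lowest Tie2-cre lung was above the highest control lung. The mean was 6.39 ± 0.14 in Tie2-cre lungs and 5.81 ± 0.06 in control lungs (SD, n = 3 each), a 1.5-fold higher level with a log2 difference of 0.58 (SE 0.11, 95% interval 0.33 to 0.83, limma adjusted p = 0.0408). The probe was dim, with deposited signals of 57.8 to 71.6 in Tie2-cre lungs and 40.4 to 41.6 in control lungs. In the authors' normalised values the difference was 0.15 and did not pass (limma adjusted p = 0.105). With 1 lung left out it ranged between 0.54 and 0.66, and like Pparg it passed only without Tie2-cre replicate 2 or control replicate 2.

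Ppard encodes a PPAR found in most tissues. It had log2 signals of 10.52, 10.27 and 10.13 in Tie2-cre lungs, against 10.49, 10.37 and 10.54 in control lungs. The groups overlapped, and the difference of −0.16 had a 95% interval of −0.45 to 0.13 (SE 0.13, limma adjusted p = 0.450). Ppara, the PPAR best known for fatty acid burning in liver and heart, had 1 probe, with deposited signals of −4.9 to −1.8 in Tie2-cre lungs and −6.6 to −4.5 in control lungs. Negative signals lie below the mean of the negative control probes, so that no difference can be given for Ppara.

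Neither C/EBP gene passed the threshold, though Cebpa did not overlap between the groups. CEBPA and CEBPB are leucine zipper factors that act before and beside PPARG in fat cells, and CEBPA is also required for the maturation of the lung epithelium. Cebpa had log2 signals of 8.04, 8.41 and 8.34 in Tie2-cre lungs, against 9.08, 8.56 and 9.27 in control lungs. Control replicate 2 lay closest to the Tie2-cre lungs. The mean was 8.26 ± 0.20 in Tie2-cre lungs and 8.97 ± 0.37 in control lungs (SD, n = 3 each), with a log2 difference of −0.71 (SE 0.19, 95% interval −1.16 to −0.25, limma adjusted p = 0.0782). Without control replicate 2 the difference was −0.91 and passed (limma adjusted p = 0.0255). Cebpb was bright in every lung, with 13.10, 12.84 and 12.97 in Tie2-cre lungs, against 13.18, 13.10 and 13.15 in control lungs. The highest Tie2-cre lung met the lowest control lung, and the difference was −0.18 (SE 0.10, 95% interval −0.42 to 0.07, limma adjusted p = 0.325).

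Of the 4 lipid-handling genes only Lpl and Plin2 were detected, and neither passed the threshold. Lpl had log2 signals of 11.63, 12.30 and 11.95 in Tie2-cre lungs, against 12.12, 12.15 and 12.35 in control lungs. The Tie2-cre lung with the lowest Pparg signal, replicate 2, had the highest Lpl signal of its group, above 2 of the control lungs. The Lpl difference was −0.25 (SE 0.17, 95% interval −0.65 to 0.16, limma adjusted p = 0.399). Without Tie2-cre replicate 1 it was −0.08, and without Tie2-cre replicate 2 it was −0.42, neither past the threshold. Plin2 had 9.41, 9.60 and 9.45 in Tie2-cre lungs, against 9.71, 9.72 and 9.73 in control lungs. After normalisation the groups did not overlap and the control lungs had an SD of 0.01. The deposited Plin2 signals did overlap, at 685.4 to 770.9 in Tie2-cre lungs and 762.3 to 839.4 in control lungs. The normalised difference was −0.23 (SE 0.10, limma unadjusted p = 0.0479, adjusted p = 0.186), and −0.11 with median scaling in place of quantile normalisation (limma adjusted p = 0.527).

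Fabp4 and Cd36 had 1 probe each, and neither rose above background on any array. Deposited Fabp4 signals ran from −9.2 to −0.7 in Tie2-cre lungs and from −8.7 to −0.2 in control lungs. Those of Cd36 ran from −6.2 to 4.5 in Tie2-cre lungs and from −6.2 to 0.6 in control lungs. The other undetected probes were 2 of the 3 for Pparg and 1 of the 2 each for Ppard and Lpl. After normalisation the 7 undetected probes had log2 signals of 4.28 to 4.86, where the middle 95% of the 23265 probes detected on no array ran from 4.28 to 5.08. A probe at this level says only that it gave no signal, and Fabp4 and Cd36 are left without a comparison.

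**Figure D2:**
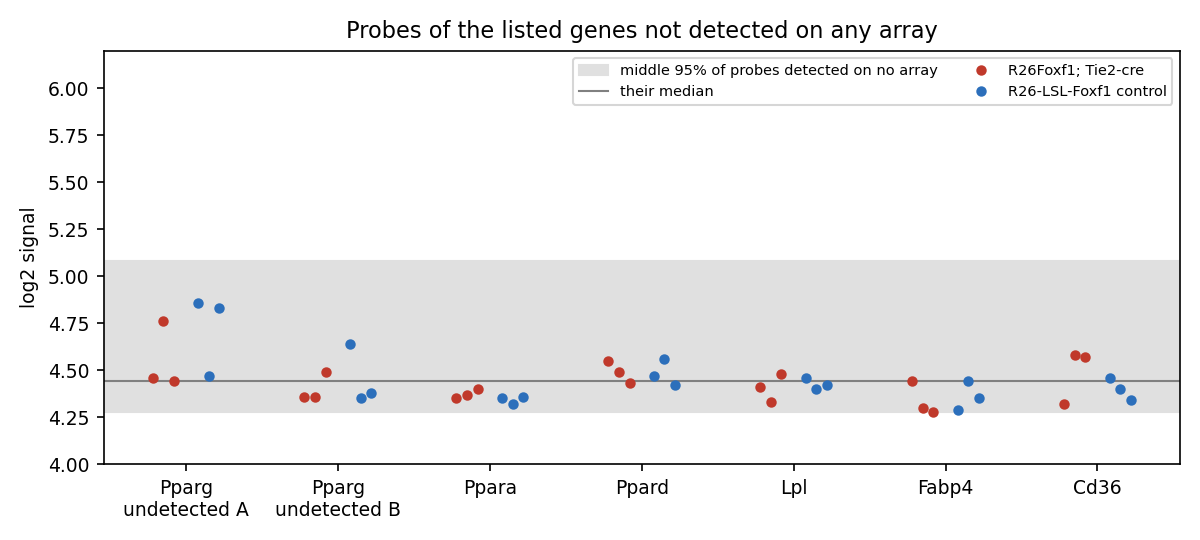
Log2 signal (y axis) of the 7 member probes with no signal above background, 1 point per lung with Tie2-cre lungs left of control lungs. The grey band is the middle 95% of the 23265 probes detected on no array, 4.28 to 5.08, the line is their median of 4.44, and all points lie between 4.28 and 4.86.

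To ask whether the other genes followed Pparg, the Pparg signal was subtracted from each gene's signal in every lung, and these per-lung differences were compared between the groups for 6 genes. A value of 0 means that a gene changed as much as Pparg, and intervals rest on the spread of the 3 lungs in each group. Cebpa was nearest to it, with a change 0.34 above that of Pparg (SE 0.32, 95% interval −0.55 to 1.23) and groups that overlapped. The change of Plin2 lay 0.82 above that of Pparg (95% interval 0.05 to 1.58), that of Cebpb 0.87 above it (0.42 to 1.32) and that of Ppard 0.89 above it (0.24 to 1.54). For Lpl the gap was 0.80, with an interval that spans 0 (−0.29 to 1.89). Rxra, which moved the other way, differed by 1.63 (1.24 to 2.02). The groups did not overlap for Ppard, Rxra, Cebpb, Lpl and Plin2, and each of these had an exact two-sided permutation p of 0.1, the smallest 3 against 3 allow (0.12 after Benjamini-Hochberg adjustment over the 6). For Cebpa the exact permutation p was 0.5. All these gaps subtract the same Pparg signals, whose groups do not overlap by themselves. A gene with little change would therefore separate too, and the gaps are not independent of each other. The share of all tested genes that separate in this way was not counted. The design cannot reach p under 0.05 in this test, so that the size of each gap is given by its interval alone. Without Tie2-cre replicate 2, the lung with the lowest Pparg, the gap was 0.42 (SE 0.15) for Lpl, 0.06 (SE 0.20) for Cebpa and 0.55 (SE 0.10) for Plin2. The Cebpa gap was also 0.53 without Tie2-cre replicate 1 and 0.21 without control replicate 2. On the authors' values the gaps were 0.39 for Lpl, 0.16 for Cebpa, 0.45 for Plin2, 0.47 for Cebpb, 0.48 for Ppard and 0.79 for Rxra. No gap changed sign in any of the 10 alternative runs in which gaps were computed.

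**Figure D3:**
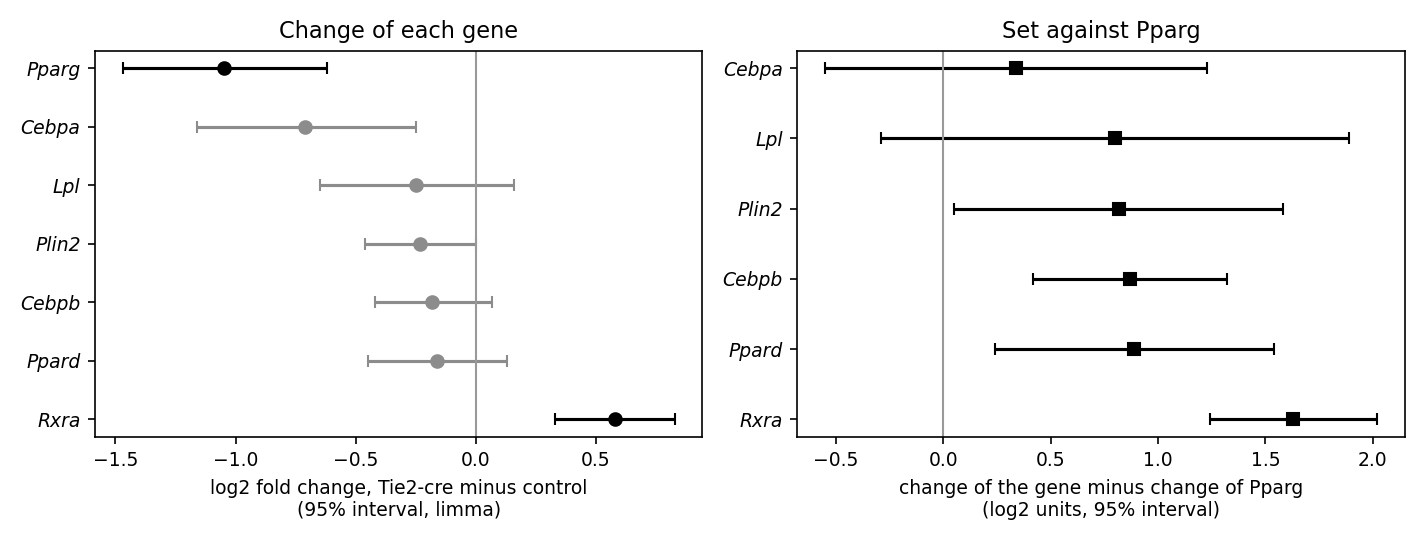
Log2 difference, Tie2-cre minus control lungs (x axis), of the 7 detected members with limma 95% intervals (left panel, black past the threshold and grey not), and each gene's change minus that of Pparg with its 95% interval (right panel). Pparg at −1.05 and Rxra at 0.58 passed the threshold, and Cebpa at −0.71 lies nearest to Pparg.

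The 8 genes most like Pparg over the 6 lungs held no member of the set and no gene of the lipid lists described below. Likeness was the root-mean-square difference between 2 centred log2 profiles, over 11079 other genes. The nearest was Pik3ap1, an adaptor of PI3-kinase signalling in immune cells, at 0.16, with mean log2 signals of 7.74 in Tie2-cre lungs and 8.77 in control lungs. It was followed by Nabp1, a single-stranded DNA binding protein (0.19), Tnfrsf1b, a receptor for tumour necrosis factor (0.20), and Sorcs2, a sortilin-family receptor (0.20). Next came Myog, a skeletal muscle transcription factor (0.21), Arl11, a small GTPase (0.22), Psmd5, a proteasome assembly factor (0.24), and Amd2 (0.24), whose probe may also read its near-identical copy Amd1. Tnfrsf1b and Myog were not above background in any Tie2-cre lung, so that their levels there are bounds: Tnfrsf1b was at least 1.47-fold and Myog at least 1.31-fold lower in Tie2-cre lungs. Such a bound sets the dim group at the lowest signal detected on each array. Nabp1 and Amd2 were detected in 1 of 3 Tie2-cre lungs. A gene must differ by about as much as Pparg to lie near it on this measure. Among the set, Cebpa ranked 203 (0.36), Cebpb 1057 (0.47), Plin2 1561 (0.49), Ppard 1762 (0.50), Lpl 3547 (0.56) and Rxra 10579 (0.83). The order is a description of these 6 lungs.

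**Figure D4:**
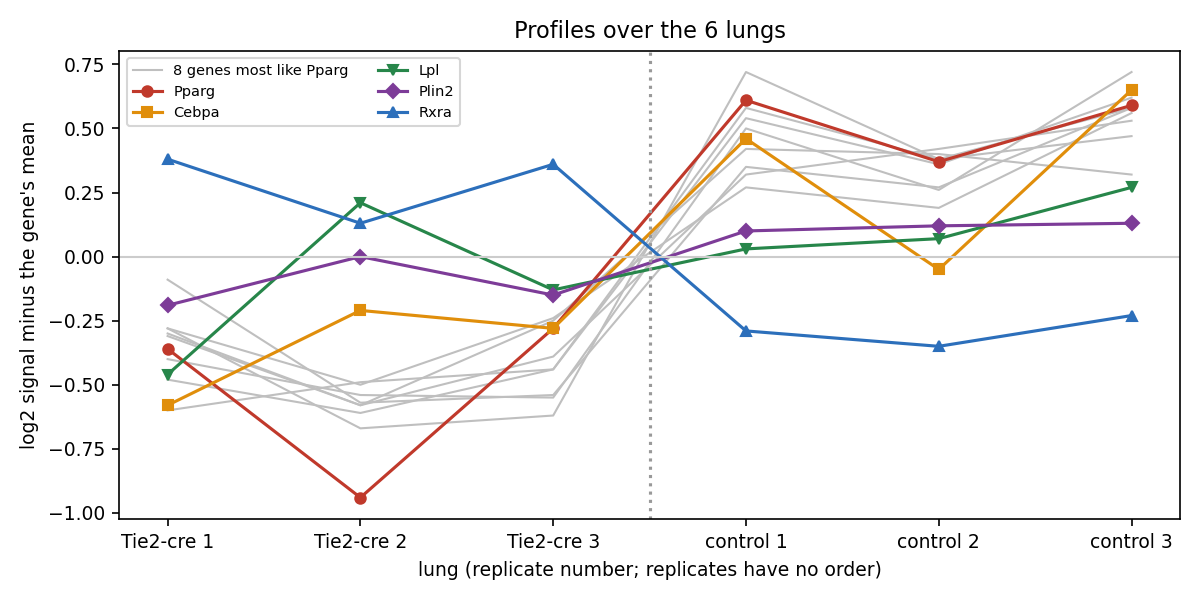
Centred log2 signal (y axis) in each lung (x axis, Tie2-cre lungs left of control lungs) of Pparg, Cebpa, Lpl, Plin2 and Rxra (colours) and of the 8 genes nearest to Pparg (grey lines, with Tnfrsf1b and Myog at background in Tie2-cre lungs). Lpl, Plin2 and Cebpa peak within the Tie2-cre group in replicate 2, where Pparg is lowest.

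Counts for the wider lipid pathway are set beside the shares over all tested genes, and they do not set the pathway apart. Each gene was represented by its brightest probe, and 98 of 134 genes on 6 lists were tested. Of these 98, 1 passed the threshold higher and 0 lower in Tie2-cre lungs by limma, against 2.98% past the threshold among all 11080 tested genes (1.54% higher and 1.44% lower). At an unadjusted p under 0.05 the count was 17 of 98, against 22.0% of all tested genes, and the methods' t-test on the authors' values passed none after adjustment, of these or of any probe. The median difference was 0.04, against 0.05 over all tested genes, and 41 of 98 had a lower mean, against 42.3%.

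The gene that passed was Cpt1a, which encodes the enzyme that admits long-chain fatty acids to mitochondria for oxidation and is a known PPAR target in other tissues. Its log2 signals were 6.60, 6.45 and 6.59 in Tie2-cre lungs, against 6.04, 6.02 and 5.79 in control lungs. All Tie2-cre lungs were above all control lungs, with a difference of 0.60 (SE 0.11, limma adjusted p = 0.0410). With 1 lung left out the difference was 0.52 to 0.64, and it passed only without control replicate 2 (limma adjusted p = 0.0360 to 0.136). The call was lost without the filter on dim probes (0.0673), with the looser filter (0.0585), with the block (0.0933) and on the authors' values, where the difference was 0.16 (0.0884 in limma and 0.124 in the methods' t-test). Cpt1a was 1 of 24 tested genes of fatty acid oxidation, where 6 had an unadjusted p under 0.05, against 22.0% of all tested genes, and the median difference was 0.05. Acaa2, which cuts the shortened chain in the last step of each oxidation round, had −0.57 (limma adjusted p = 0.0903), so that the list held differences in both directions.

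No gene of the other 5 lists passed by its brightest probe, and the members with the widest differences are given as values. The counts at an unadjusted p under 0.05 stand against 22.0% of all tested genes. Among 15 receptor partners and co-regulators (1 with an unadjusted p under 0.05, median 0.04), Ncoa2, a nuclear receptor coactivator, had the highest difference at 0.41, and the second RXR gene, Rxrb, had 10.84, 10.78 and 10.97 in Tie2-cre lungs, against 10.61, 10.56 and 10.57 in control lungs (0.29, limma adjusted p = 0.118). Med1, the Mediator subunit that docks on nuclear receptors, and Klf4 were at −0.27. Among 18 genes of fatty acid uptake and lipoprotein receptors (4 unadjusted, median −0.04), the lipoprotein receptor Lrp1 was at 0.47 (limma adjusted p = 0.0614). Fabp3, the fatty acid carrier of heart and muscle, was at −0.50 with 8.60, 10.86 and 11.0 in Tie2-cre lungs, against 10.26, 10.66 and 11.04 in control lungs, where Tie2-cre replicate 1 alone was low.

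Lipid droplet and lipolysis genes, the list around Plin2, had the narrowest spread. Its 15 tested genes lay between −0.22 for Hilpda, a hypoxia-induced droplet protein, and 0.23 for Fitm2, which helps droplets to form, and 0 had an unadjusted p under 0.05 in limma. Among 18 genes of fatty acid and glyceride synthesis (4 unadjusted, median 0.10) the widest differences were 0.56 for Acacb, an acetyl-CoA carboxylase, and −0.88 for Gpam, which starts glycerolipid synthesis. Gpam had 6.93, 7.16 and 7.04 in Tie2-cre lungs, against 8.18, 7.45 and 8.16 in control lungs. The groups did not overlap, and the limma adjusted p was 0.0522. Of 8 cholesterol efflux genes (2 unadjusted, median −0.13), the phospholipid transfer protein gene Pltp was at −0.40 (limma adjusted p = 0.0661) and Lcat, which esterifies cholesterol in lipoproteins, at 0.37.

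A dimmer probe of 5 pathway genes passed where the brightest did not, and these 5 were singled out after their values were seen. Gpihbp1, the endothelial protein that anchors LPL in capillaries, had 10.44, 10.49 and 10.27 by that probe in Tie2-cre lungs, against 11.28, 10.86 and 10.93 in control lungs. The difference was −0.63 (SE 0.14, limma adjusted p = 0.0484) by this probe and −0.13 (limma adjusted p = 0.566) by the brightest. Acsl5, which activates fatty acids, was at −0.89 by its dimmer and −0.03 by its brightest probe. Mgll, the monoglyceride lipase, was at −0.55 and −0.03. For Ncoa2 the dimmer probe was not above background in any control lung and was tested only through its signal in Tie2-cre lungs. It was at least 1.15-fold higher there, a bound that limma did not test, and the brightest probe was at 0.41. The dimmer Acsl5 probe was detected in 2 of 3 Tie2-cre lungs. For Etfdh, which passes electrons from fatty acid oxidation to the respiratory chain, the probes differed in sign, at 0.82 by the dimmer and −0.34 by the brightest. In the other 4 genes the 2 probes named here had the same sign. Acsl5 and Mgll had 3 tested probes each, and the remaining probe, which did not pass, is not given. Each of these dimmer-probe calls was lost in at least 4 of the 6 fits that left out 1 lung.

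**Figure D5:**
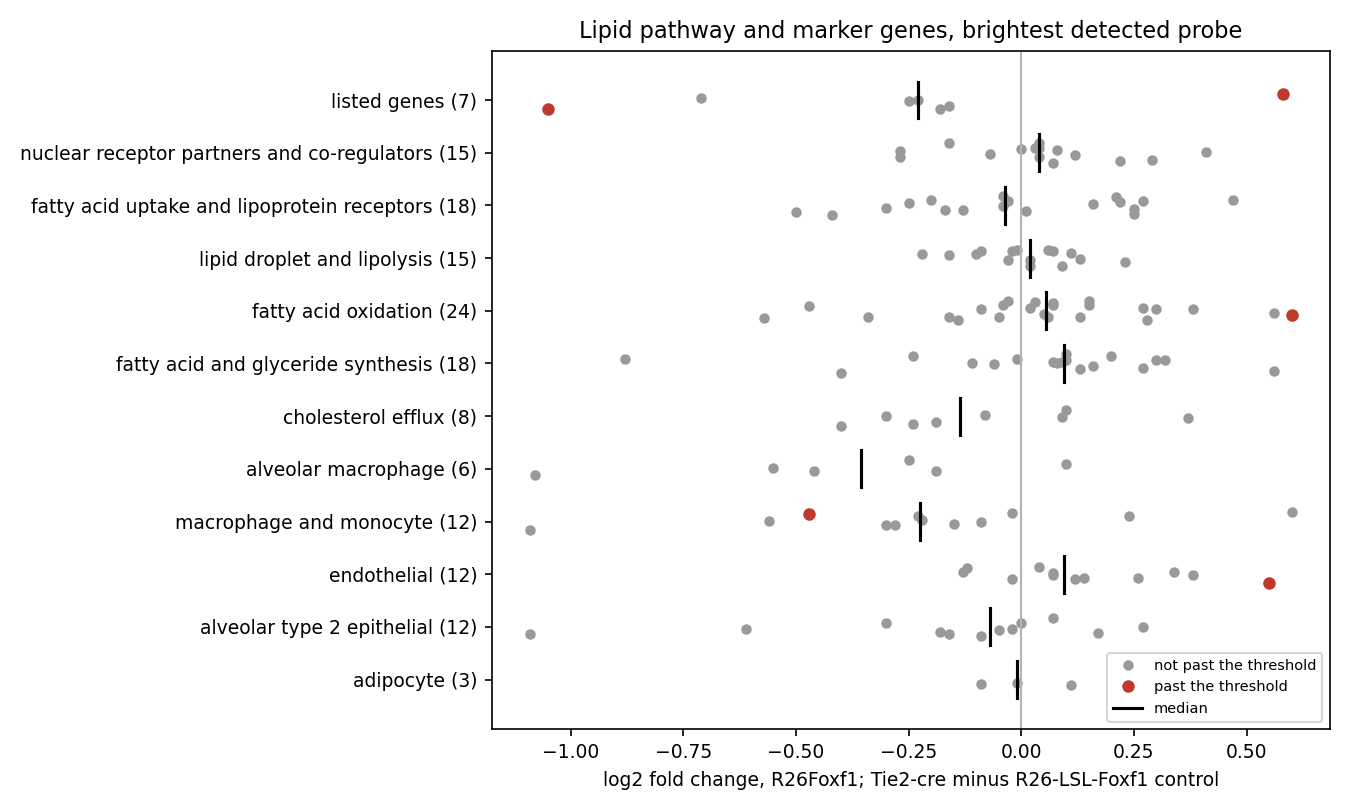
Log2 difference, Tie2-cre minus control lungs (x axis), of every tested gene by its brightest probe in the set, on the 6 pathway lists and on 5 marker lists (rows, number tested in brackets). Red points passed the threshold and black bars are medians, which lie between −0.13 and 0.10 on the pathway lists.

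Markers of cells that are known to use Pparg or lipid are given beside these results. Marker counts here and in the next paragraph stand against the shares over all tested genes. Of these, 42.3% had a lower mean, 1.44% passed lower, 1.54% passed higher and 22.0% had an unadjusted p under 0.05. Of 12 tested macrophage and monocyte markers, 10 had a lower mean in Tie2-cre lungs and 1 passed, the Fc receptor gene Fcgr1 at −0.47 (limma adjusted p = 0.0452, lost in 5 of the 6 fits that left out 1 lung). Of these 12, 5 had an unadjusted p under 0.05 in limma, and their median was −0.22. The chemokine receptor gene Ccr2 was at 0.60 (limma adjusted p = 0.0732). The summed normalised signal of that list was 29207 to 43614 in Tie2-cre lungs and 42102 to 48048 in control lungs. Most of this sum came from Lyz1 and Lyz2, the brightest genes of the list. The mean log2 signal over the list was 8.92, 9.16 and 8.84 in Tie2-cre lungs, against 9.21, 9.12 and 9.24 in control lungs. Of 14 alveolar macrophage markers 6 were tested and none passed (3 with an unadjusted p under 0.05), between −1.08 for Chil3 and 0.10 for Car4. Their median was −0.36, or −0.22 with Marco, not above background in any Tie2-cre lung, at its bound. The defining genes Itgax and Siglecf were detected on 0 arrays. The sum of the 6 was 1900 to 2632 in Tie2-cre lungs and 2466 to 2736 in control lungs. Lyz2, a marker of macrophages and of alveolar type 2 cells, had 12.57, 13.35 and 12.02 in Tie2-cre lungs, against 13.80, 13.49 and 13.92 in control lungs (limma adjusted p = 0.0816). None of 12 alveolar type 2 markers passed in limma (3 unadjusted, median −0.07, from −1.09 for Lyz2 to 0.27 for Abca3), with a sum of 92491 to 115961 in Tie2-cre lungs and 108247 to 121516 in control lungs. The part of these cells in the Pparg result was not tested.

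Most adipocyte markers on the array were too dim to test, so that the fat cell content of the lungs is not shown. Of 14 adipocyte markers 3 were tested (0 with an unadjusted p under 0.05 in limma), from −0.09 for Cidea to 0.11 for Pnpla2, while Lep, Retn, Plin1, Cidec and Ucp1 were detected on 0 arrays and Adipoq on 1. The sum of the 3 was 1314 to 1688 in Tie2-cre lungs and 1361 to 1424 in control lungs. The 12 lipofibroblast and mesenchymal markers had a median of −0.09 with none past the threshold (2 unadjusted), from −1.33 for Lum to 0.49 for Pdgfrb (limma adjusted p = 0.0503), and sums of 65122 to 77390 in Tie2-cre lungs and 70980 to 82818 in control lungs. Of 12 tested endothelial markers 1 passed, the apelin receptor gene Aplnr at 0.55 (limma adjusted p = 0.0431, lost in 5 of the 6 fits that left out 1 lung). Of these 12, 3 had a lower mean and 4 an unadjusted p under 0.05 in limma, with a median of 0.09. Their sum was 56231 to 61204 in Tie2-cre lungs, against 49149 to 54608 in control lungs. Markers of skeletal muscle, a tissue the lung itself lacks, had a lower mean in all 10 tested genes (9 unadjusted, median −2.44). Their sums were 1638 to 4697 in Tie2-cre lungs, against 7686 to 60485 in control lungs. Car3 and Myog passed the threshold, but neither was above background in any Tie2-cre lung. Both were tested only through their signal in control lungs. They were at least 1.82-fold and at least 1.31-fold lower in Tie2-cre lungs, bounds that limma did not test. Muscle expresses Lpl, Fabp3 and Myog, and its part in their values was not tested. Erythroid markers (6 tested, 0 unadjusted, from −0.46 for Alas2 to 0.17 for Tfrc) and the 1 tested lymphocyte marker, Cd8b1 (0.32, 1 unadjusted), had none past the threshold in limma.

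Across the arrays, 19831 to 20043 probes were detected per lung and no pair of lungs held identical values. The Foxf1 probe had 10.93, 10.77 and 10.83 in Tie2-cre lungs, against 10.68, 10.15 and 10.77 in control lungs. The difference of 0.31 did not pass (SE 0.17, limma adjusted p = 0.285), and the annotation does not say whether this probe reads the knocked-in copy. By other methods, quantitative RT-PCR and FOXF1 staining, the paper reports Foxf1 overexpression in such lungs at E18.5. It also states that quantitative RT-PCR verified its array data for Pparg. Tek, whose promoter drives the Cre, was at −0.02 (limma adjusted p = 0.923). Tie2-cre replicate 3 alone had a signal from the Y-linked gene Eif2s3y, by 1 probe (log2 8.96), while another gave none above background. By its brightest probe Xist, a gene expressed in female cells, was at 4.41 in that lung. It was at 12.69 and 12.27 in the other Tie2-cre lungs and at 12.31, 12.18 and 11.87 in control lungs. By these genes replicate 3 alone read as male, so that sex was not balanced between the groups. Without that lung the Pparg difference was −1.17 and did not pass (limma adjusted p = 0.116), and Pparg was also lower than in every control lung in the other 2 Tie2-cre lungs.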

How the data were processed

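Total RNA of 6 whole mouse lungs was labelled with biotin and hybridised to Illumina mouse WG-6 v2.0 BeadChips. For every probe the authors deposited 1 signal (intensity) per lung, with the background taken off by the scanner software and all arrays brought to 1 mean. Between 25.5% and 28.5% of the signals of a lung were negative. A detection p-value, which ranks each probe against the array's negative controls, was deposited with the signals. The authors also deposited log2-like values made with the lumi package by variance stabilisation and robust spline normalisation. These served as an alternative.

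Background was corrected with neqc of limma 3.58.1 (R 4.3.3), which infers the negative controls from the detection p-values (offset 16), before log2 transformation and quantile normalisation. Quantile normalisation gives every array the same distribution, so that a change shared by most genes would not be seen. A probe was tested, with lmFit and eBayes, if its detection p was under 0.01 in 3 or more of the 6 lungs. Labels call the lungs biological replicates, and p-values measure the spread among these 6 lungs. The paper calls the controls littermates, and the sample titles name no litter. Replicate numbers were not used to pair lungs, because the deviations of same-numbered lungs correlated at 0.293, −0.0355 and −0.0269. Differently numbered lungs ran from −0.198 to 0.175, so that 0.293 was the highest of all, and a replicate block was run as an alternative. The number of arrays limits the precision.

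Symbols came from the platform annotation, updated by gene ID to GRCm38.p6. Of all probes 34885 had 1 symbol, 18 several and 10378 none. No gene was named from a probe with several. Promoter windows came from RefSeq, and no window for Lpl or Fabp4 was used here. The set and the 15 gene lists were chosen with earlier results of these data known. Genes named were all members, on each list up to 3 genes past the threshold in each direction or otherwise the gene with the largest change each way, and the 8 genes nearest to Pparg. Other genes named by value (Rxrb, Acaa2, Marco, Ccr2 and the dimmer probes) were chosen after their values were seen. Alternatives were other background corrections, normalisations, filters, variance models and thresholds, the methods' t-test, a replicate block and leaving out each lung.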

Additional observations from a re-analysis of the deposited data

How the results depend on the processing

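No difference of a member changed sign under any alternative run. The count of all probes past the threshold (908) was 58 without a filter on dim probes, 250 with a detection p under 0.05 on 1 array, 1860 with a variance trend and robust moderation, 2490 with array weights and 2679 at an adjusted p under 0.1. The methods' t-test on the authors' values passed 0 probes after adjustment, with 4403 at an unadjusted p under 0.05. A replicate block left 46. With 1 lung left out the count ran from 2 to 1703. It was 17, 358 and 2 without Tie2-cre replicates 1, 2 and 3, and 17, 1703 and 92 without control replicates 1, 2 and 3. That of member probes then ran from 0 to 3. Member probes past the threshold (2, Pparg and Rxra) numbered 1 on the authors' values and 0 without the filter, with the looser detection limit, in the t-test and with the replicate block. Pparg was −1.05 in the 3 of these made on the same signals (limma adjusted p = 0.0748, 0.0514 and, with the block, 0.0665) and −0.64 in the t-test (adjusted p = 0.135). Over all alternatives its adjusted p ran from 0.00732 to 0.135, and its difference from −1.17 to −0.84 with 1 lung left out. Cebpa passed with the variance trend (adjusted p = 0.0342), with array weights (0.0290), without control replicate 2 (0.0255) and at an adjusted p under 0.1 (0.0782). Of the lipid pathway, 1 gene passed (Cpt1a). The count was 2 without background correction, on the authors' values, with median scaling, with cyclic loess and with detection on all 6 arrays, 5 with the variance trend, 8 with array weights and 6 at an adjusted p under 0.1. It was 0 without the filter, with the looser detection limit, in the t-test and with the block, and 0 to 3 with 1 lung left out. Gaps to Pparg were computed in only 10 of the alternatives. These were no background correction, the authors' values, median scaling, cyclic loess and the runs with 1 lung left out. Over these 10 the gaps ran from 0.06 to 0.53 for Cebpa, 0.39 to 1.05 for Lpl and 0.45 to 0.96 for Plin2. They ran from 0.47 to 1.0 for Cebpb, 0.48 to 1.1 for Ppard and 0.79 to 1.72 for Rxra. The causes of these shifts were not tested. Taking the mean of a gene's detected probes changed no member, since each has 1. For 7 of 14 probes the signal was too close to background to show a difference.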
